A study of Mus musculus with 6 samples.

Results

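The genes described here are 10 genes of the YAP, TAZ and TEAD pathway: Yap1, Wwtr1 (TAZ), Tead1, Tead2, Tead3, Tead4, Lats1, Lats2, Amotl2 and Ankrd1. They were chosen by name as genes of this pathway, with earlier results of these data known, and each matched 1 of the 54838 rows of the counts table. All 10 passed the low-count filter, as did 18775 rows in total. RNA of whole sciatic nerve was sequenced at postnatal day 3 in 3 libraries labelled wild type (WT) and 3 labelled CnpCre Actl6afl/fl, called conditional knockout (cKO) here, all of strain C57 Bl. In the cKO the Cre recombinase carries the name of Cnp, a gene active in myelinating glia, and acts on a floxed Actl6a allele, whose product belongs to the BAF (SWI/SNF) complex, which remodels chromatin. The WT label does not say whether those mice carried the floxed allele or the Cre, and no label says whether a library is 1 animal or several pooled, so the p-values rest on a spread between libraries that may be technical in part. By this design, nerve cells outside the Cre lineage would keep Actl6a, and the extent of the deletion was not tested.

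YAP and TAZ are coactivators that bind no DNA themselves. They enter the nucleus when the Hippo kinases are inactive and act there through TEAD factors, which bind DNA at CATTCC motifs. When the kinases are active, MST kinases phosphorylate LATS1 and LATS2, and LATS phosphorylates YAP and TAZ, which are then held in the cytoplasm or degraded. In Schwann cells YAP, TAZ and TEAD1 are needed for axonal sorting and for the onset of myelination. The ACTL6A protein has been linked to the pathway in squamous carcinoma cells, where it was reported to hold down WWC1 (KIBRA), an upstream activator of LATS. The comparison here asks which transcripts of the pathway differ between nerves of the 2 genotypes. A phosphorylation or localisation change of YAP or TAZ leaves no direct trace in these counts.

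Total counts were 33084003 to 36760296 in WT and 31404107 to 32674317 in cKO libraries. The targeted gene, Actl6a, read 48.6, 53.3 and 46.2 CPM (counts scaled to library size after TMM normalisation) in WT and 42.4, 47.6 and 41.5 CPM in cKO, ranges that overlap (log2 fold change -0.17, edgeR adjusted p = 0.243). The Schwann lineage markers together took 2.21 to 2.54% of all counts in WT and 0.256 to 0.517% in cKO, and 6 of 8 fell. Skeletal muscle markers took 0.386 to 0.554% in WT, 0.498 and 0.600% in cKO replicates 1 and 3 and 6.17% in cKO replicate 2, with 0 of 13 called and none at 0. Of the other marker lists, higher calls were made for 2 of 6 fibroblast, 2 of 5 perineurial, 1 of 6 endothelial, 4 of 5 macrophage, 3 of 5 erythroid, 2 of 4 neuron and 1 of 4 adipocyte markers, and lower calls for 1 perineurial and 1 of 6 pericyte and smooth muscle marker. The adipocyte marker called higher was Fabp4 (log2 fold change 0.995). Adipoq (-1.39), Plin1 (-1.67) and Cfd (-1.92) went the other way and were not called. Of 3 cardiac muscle markers 2 could be tested and 0 were called. In whole tissue, fewer cells of a type and less RNA per cell cannot be told apart. The part of these shifts in the results below was not tested. Values given without cKO replicate 2 show only what changes when that library is left out.

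Promoter sequence is shown for 4 genes that hold the TEAD motif within the 250 bases before their RefSeq start (GRCm38.p6), because they include a TEAD gene that fell, the member with the highest fold change, and a classical target in each direction. The motif searched was CATTCC on either strand, GGAATG being its reverse complement. Each sequence runs 5′ to 3′ on the strand of the gene, with motif matches in capitals.
Tead3, chr17:28350806-28351055, minus strand: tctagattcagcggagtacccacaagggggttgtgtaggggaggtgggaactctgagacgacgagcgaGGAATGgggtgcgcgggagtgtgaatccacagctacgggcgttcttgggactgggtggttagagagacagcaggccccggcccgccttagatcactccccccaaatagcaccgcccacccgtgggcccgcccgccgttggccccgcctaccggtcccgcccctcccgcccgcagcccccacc
Ankrd1, chr19:36119845-36120094, minus strand: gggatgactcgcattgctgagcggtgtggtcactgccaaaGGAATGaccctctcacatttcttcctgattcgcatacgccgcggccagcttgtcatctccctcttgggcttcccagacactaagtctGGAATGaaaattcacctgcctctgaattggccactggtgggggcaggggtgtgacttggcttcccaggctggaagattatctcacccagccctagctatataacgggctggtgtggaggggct
Ccn1, chr3:145649986-145650235, minus strand: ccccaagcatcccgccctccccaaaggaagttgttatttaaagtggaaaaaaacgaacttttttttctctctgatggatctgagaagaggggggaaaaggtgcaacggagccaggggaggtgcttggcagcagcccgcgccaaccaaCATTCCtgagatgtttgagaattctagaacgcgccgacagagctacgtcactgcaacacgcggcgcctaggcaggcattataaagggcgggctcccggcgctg
Ptpn14, chr1:189728018-189728267, plus strand: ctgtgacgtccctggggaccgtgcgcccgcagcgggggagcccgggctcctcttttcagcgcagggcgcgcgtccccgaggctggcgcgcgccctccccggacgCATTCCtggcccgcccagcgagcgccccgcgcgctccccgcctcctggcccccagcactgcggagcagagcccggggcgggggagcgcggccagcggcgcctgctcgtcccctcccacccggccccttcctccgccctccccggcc
Of the 10 genes, 8 had a promoter entry (all but Tead1 and Tead4). Of those 8, 5 (62.5%) held a match, namely Yap1, Wwtr1, Tead3, Amotl2 and Ankrd1. Some genes have several windows, and of the 12 windows of these genes 7 (58.3%) held a match. In the 22-gene target signature described below, which includes Ccn1 and Ptpn14, 6 of the 15 genes with an entry (40%) held one. Among all 27025 genes with an entry 3880 (14.4%) held one, and among all 32851 windows of this length 12.6%. The pair of Wwtr1 windows overlap and hold the same site. A match describes these letters and shows no binding.

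Of the 10 genes, 3 were called lower in cKO nerves (Tead1, Tead3 and Lats1), 0 were called higher, and 7 were not called. Over all genes tested, edgeR called 10.3% lower and 8.55% higher, or 18.8% in either direction. The median log2 fold change was -0.19 over the 10 genes and 0.04 over all genes tested. The 3 cKO libraries all lay below the 3 WT libraries for the same 3 genes and all above for Ankrd1, against 21.7% and 21.0% of all genes, and 42.7% in either direction. Without cKO replicate 2, 4 were called lower (Tead4 in addition) and 1 higher (Ankrd1), where 17.6% and 17.8% of genes were called.

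**Figure D1:**
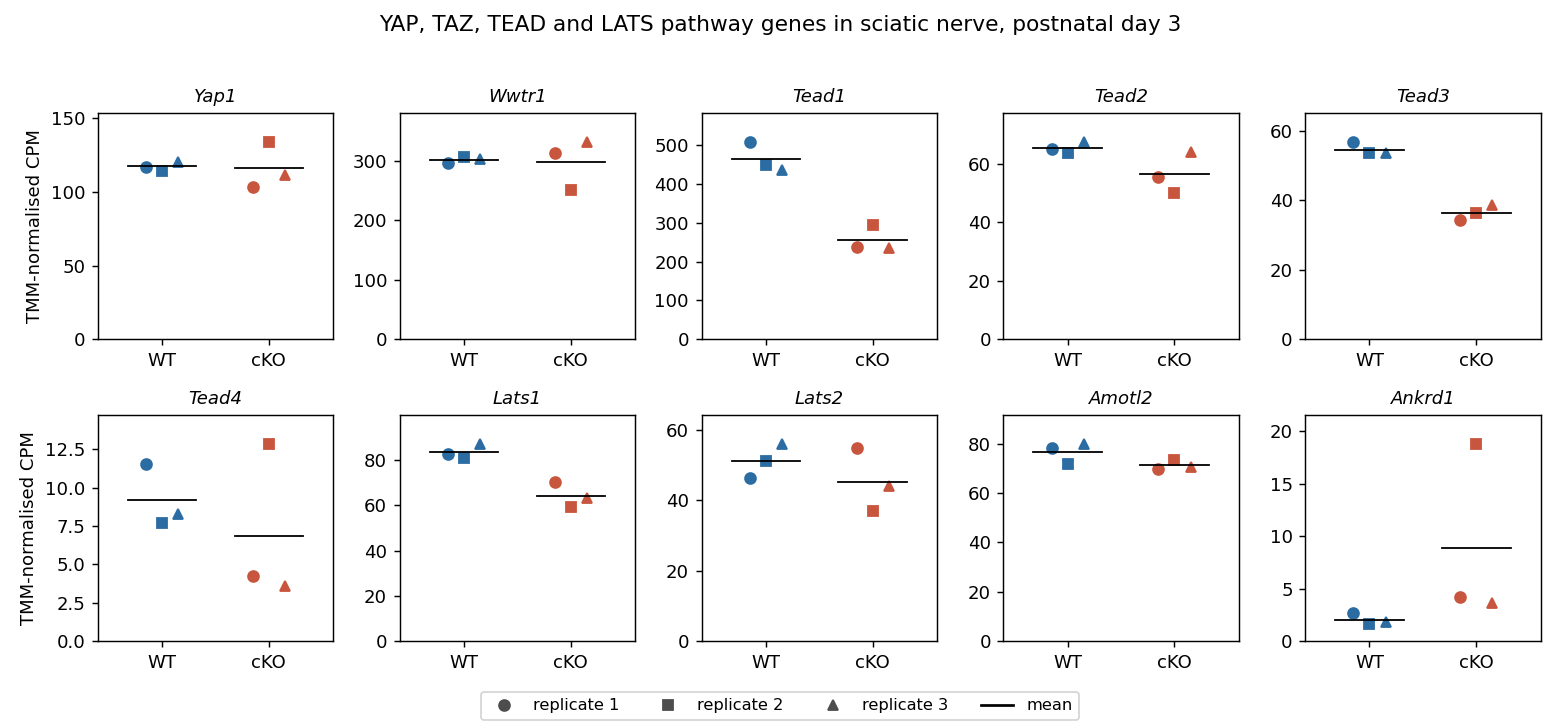
TMM-normalised CPM of each of the 10 genes in the 6 libraries, with WT in blue, cKO in red, replicates by symbol and a black line at each group's mean. Tead1, Tead3 and Lats1 show no overlap with cKO below WT, and cKO replicate 2 is the highest library for Tead4 and Ankrd1.

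The coactivator transcripts did not pass the test. Yap1 (ENSMUSG00000053110, GRCm38 chromosome 9, 7931999 to 8004596) read 117.3, 114.6 and 120.4 CPM in the WT libraries and 103.1, 133.8 and 111.8 in the cKO libraries. The cKO libraries lay on both sides of the WT range. Its log2 fold change was -0.02 (95% interval -0.28 to 0.25, edgeR adjusted p = 0.937). Wwtr1, which encodes TAZ (ENSMUSG00000027803, chromosome 3, 57455649 to 57575910), read 296.8, 305.4 and 302.3 CPM in the WT libraries and 312.3, 251.5 and 330.9 in the cKO libraries. Its cKO libraries also straddled the WT range, with replicate 2 lowest, and its log2 fold change was -0.02 (95% interval -0.30 to 0.27, edgeR adjusted p = 0.940). The intervals reach about as far up as down and do not show that the levels are equal. The replicate with the highest Yap1 had the lowest Wwtr1: in cKO replicate 2 the log2 ratio of Yap1 to Wwtr1 per length was -1.86, against -2.55 and -2.52 in cKO replicates 1 and 3 and -2.37 to -2.28 over the WT libraries. The mean ratio differed by 0.0021 between genotypes (exact permutation p = 1, 2-sided, n = 3 each, smallest possible 0.1). Without cKO replicate 2 the difference was -0.22, with both cKO libraries below all WT libraries.

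Of the 4 DNA-binding partners, Tead1 and Tead3 fell. Tead1 (ENSMUSG00000055320, chromosome 7, 112679318 to 112906807), the TEAD factor with the best described role in Schwann cells, read 507.4, 449.3 and 436.5 CPM in the WT libraries and 237.8, 293.3 and 235.2 in the cKO libraries. Every cKO library lay well below every WT library, and cKO replicate 2 was the highest of the cKO libraries. The means were 464.4 ± 37.8 CPM in WT and 255.4 ± 32.8 in cKO (SD, n = 3), a 1.82-fold fall and a log2 fold change of -0.86 (95% interval -1.16 to -0.57, edgeR adjusted p = 0.00563). Tead3 (ENSMUSG00000002249, chromosome 17, 28331671 to 28350817) read 56.7, 53.5 and 53.6 CPM in the WT libraries and 34.2, 36.2 and 38.6 in the cKO libraries. Both groups were tight and did not overlap, and Tead3 fell 1.5-fold (log2 fold change -0.59, 95% interval -0.78 to -0.39, edgeR adjusted p = 0.00520). The calls of Tead1 and Tead3 held whichever of the 6 libraries was omitted, with Tead1 from -0.97 to -0.80 and Tead3 from -0.63 to -0.55. Schwann lineage markers were lower in the same libraries (2.21 to 2.54% of counts in WT, 0.256 to 0.517% in cKO), and their part in the fall of Tead1 and Tead3 was not tested.

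Tead2 and Tead4 were not called in the 6 libraries. Tead2 (ENSMUSG00000030796, chromosome 7, 45215753 to 45233644) read 65.2, 63.6 and 67.3 CPM in the WT libraries and 55.5, 50.03 and 64.1 in the cKO libraries. Of the cKO libraries, 2 lay below the WT range and replicate 3 lay within it (log2 fold change -0.21, 95% interval -0.46 to 0.04, edgeR adjusted p = 0.207). Tead4 (ENSMUSG00000030353, chromosome 6, 128224288 to 128300823), a TEAD factor also used by muscle cells, read 11.5, 7.72 and 8.26 CPM in the WT libraries and 4.22, 12.8 and 3.60 in the cKO libraries. The libraries of cKO replicates 1 and 3 were below all WT libraries and replicate 2 above them, which is the library where muscle markers took 6.17% of counts. With all libraries the log2 fold change of Tead4 was -0.42 (95% interval -1.69 to 0.85, edgeR adjusted p = 0.596). Without cKO replicate 2 it was -1.23 (95% interval -1.64 to -0.82, adjusted p = 0.000305), so a lower call there rests on 2 cKO libraries.

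Compared per length of exon, Tead1 made up a smaller share of TEAD transcripts in each cKO library than in any WT library. Summed over the 4 genes, TEAD transcripts stood at 62.6, 56.5 and 56.5 CPM per kilobase in WT and 35.4, 41.0 and 37.5 in cKO, and the groups did not overlap. The cKO mean was 0.648 of the WT mean. For Yap1 and Wwtr1 together the sums were 75.8 ± 0.862 in WT and 75.0 ± 7.24 CPM per kilobase in cKO (SD, n = 3 each). Tead1 made up 58.4 ± 1.38% of TEAD transcripts in WT and 49.5 ± 3.22% in cKO, Tead2 23.4 ± 1.58% and 31.3 ± 5.27%, Tead3 13.9 ± 0.369% and 14.3 ± 1.10%, and Tead4 4.33 ± 0.694% and 4.89 ± 3.30% (SD, n = 3 each). The log2 ratio of Tead1 to the other 3 TEAD genes was 0.57, 0.50 and 0.40 in WT and -0.03, 0.16 and -0.22 in cKO. The difference of -0.52 gave the smallest p this design allows (exact permutation p = 0.1, 2-sided, n = 3 each), so this test cannot pass a threshold of 0.05.

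**Figure D2:**
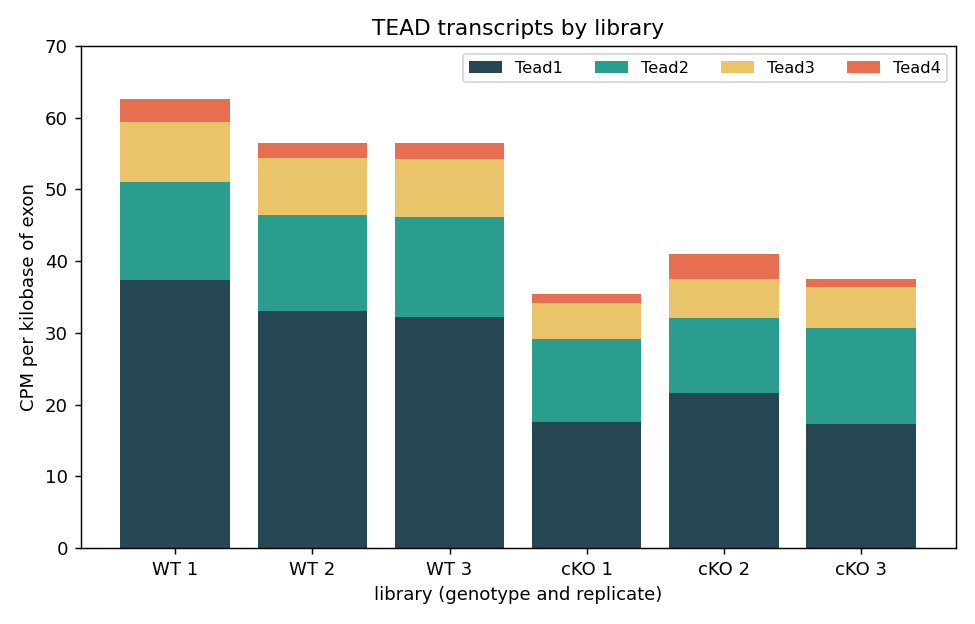
Stacked CPM per kilobase of exon of the 4 TEAD genes in each library. The stacks reach 56.5 to 62.6 in WT and 35.4 to 41.0 in cKO, and most of the drop is in the Tead1 segment.

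Of the kinases that restrain YAP and TAZ, Lats1 was lower and Lats2 was not called. Lats1 (ENSMUSG00000040021, chromosome 10, 7681214 to 7716460) read 82.6, 80.7 and 86.9 CPM in the WT libraries and 70.3, 59.0 and 63.1 in the cKO libraries. The groups did not overlap, and Lats1 fell 1.3-fold (log2 fold change -0.38, 95% interval -0.59 to -0.16, edgeR adjusted p = 0.0309). That call was lost without WT replicate 1 (adjusted p = 0.103), WT replicate 2 (0.0951), WT replicate 3 (0.129) or cKO replicate 3 (0.0928), and with upper-quartile scaling (0.0715). Its log2 fold change stayed between -0.45 and -0.32 over the 6 omissions. Omitting a WT library also lowered the calls over all genes, from 1929 to between 790 and 829 lower and from 1605 to between 449 and 483 higher. Lats2 (ENSMUSG00000021959, chromosome 14, 57689662 to 57758388) read 46.3, 51.2 and 55.9 CPM in the WT libraries and 54.8, 37.0 and 44.1 in the cKO libraries, with overlapping groups (log2 fold change -0.18, 95% interval -0.54 to 0.19, edgeR adjusted p = 0.445). The log2 ratio of Lats1 to Lats2 was 0.64 ± 0.11 in WT and 0.45 ± 0.16 in cKO (SD), with overlapping groups and a difference of -0.19 (exact permutation p = 0.3, 2-sided, n = 3 each).

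The Lats2 level is an undercount. In the deposited gene models 42.4% of its 6971 exonic bases also belong to the gene model Gm49361, and Gm49361 has 0 counts in all 6 libraries. Reads in exons of more than 1 gene were assigned to neither by the counting used. Over the full length Lats2 stood at 7.34 ± 0.689 CPM per kilobase in WT (SD, n = 3), and over its 4016 unshared bases at 12.7 ± 1.20. The first value lies below that of Lats1 (11.4 ± 0.435) and the second above it. For the other 9 genes at most 1.25% of exonic bases and 1.35% of 50-base transcript words were shared with another gene. Tead3 and Tead4 each share 10 such words with 1 other gene.

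In order of level per length, WT nerves held Wwtr1 (63.1 ± 0.909 CPM per kilobase), Tead1 (34.2 ± 2.78), Tead2 (13.7 ± 0.389), Yap1 (12.7 ± 0.318), Amotl2 (12.2 ± 0.669), Lats1 (11.4 ± 0.435), Tead3 (8.13 ± 0.269), Lats2 (7.34 ± 0.689, the undercount above), Tead4 (2.55 ± 0.571) and Ankrd1 (1.16 ± 0.328) (SD, n = 3). Wwtr1 was above Yap1 in every WT library and lay at or above 95.7% of tested genes. Neighbours whose WT ranges overlapped were Yap1 and Amotl2, Amotl2 and Lats1, and Tead3 and Lats2. Amotl2 is therefore not separated from Yap1 or from Lats1 by these libraries, while Yap1 lay above Lats1 in every WT library.

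Amotl2 and Ankrd1 are both pathway targets. Amotl2 (ENSMUSG00000032531, chromosome 9, 102716672 to 102733418), an angiomotin that also binds and restrains YAP, read 78.1, 71.8 and 79.8 CPM in the WT libraries and 69.9, 73.4 and 70.7 in the cKO libraries. The ranges overlapped (log2 fold change -0.10, 95% interval -0.29 to 0.08, edgeR adjusted p = 0.381). Ankrd1 (ENSMUSG00000024803, chromosome 19, 36111965 to 36119844), a YAP target in many cells and a stress-responsive protein of striated muscle, read 2.71, 1.61 and 1.83 CPM in the WT libraries and 4.22, 18.8 and 3.69 in the cKO libraries. All cKO libraries were above all WT libraries, and cKO replicate 2 stood far above the rest. The log2 fold change was 2.11 (95% interval 0.30 to 3.92) and missed the threshold with edgeR (adjusted p = 0.103), whereas DESeq2 called it (adjusted p = 0.00219). Without cKO replicate 2 it was 0.95 (95% interval 0.46 to 1.44, edgeR adjusted p = 0.00559), and with the muscle marker share as a covariate 0.86 (adjusted p = 0.00499). So a smaller rise was called once the muscle-rich library was left out or its share fitted. Without that library 17.8% of all genes were called higher and 17.6% lower. These fits are not separate evidence, because the muscle share stood apart only in that library (6.17%, against 0.386 to 0.600% in the others). Without it, 2 of 13 muscle markers were called higher and 1 lower, with a median log2 fold change of 0.44. The part of muscle in the smaller rise was not tested.

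**Figure D3:**
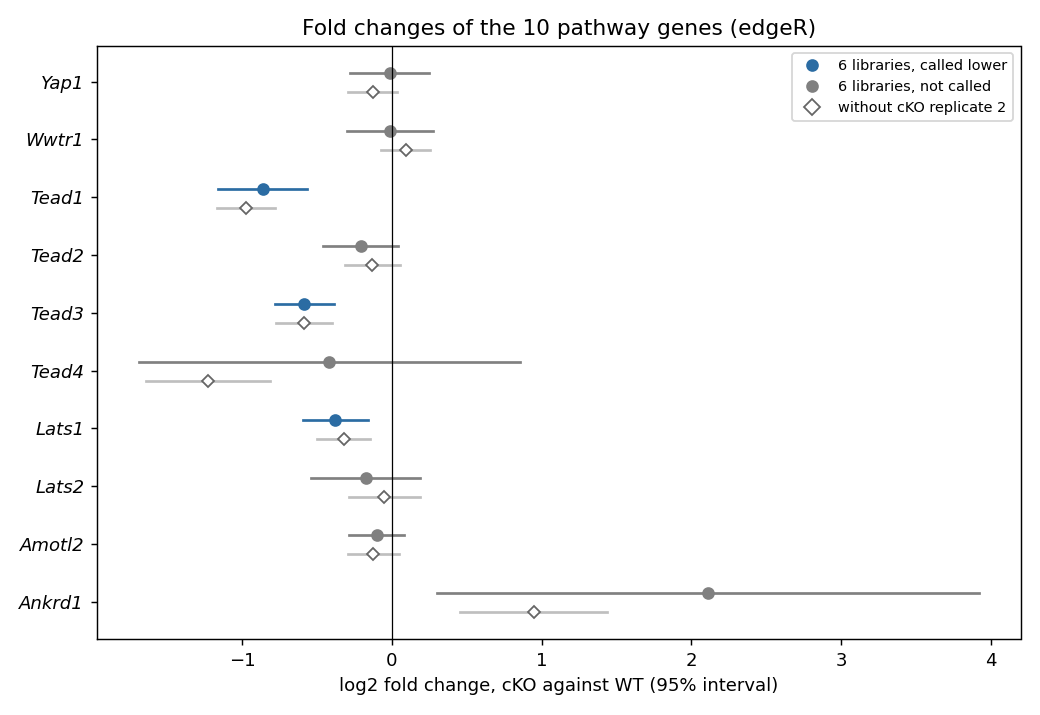
Log2 fold change of each of the 10 genes in cKO against WT with its 95% interval, from all 6 libraries (filled circles, blue where called lower) and without cKO replicate 2 (open diamonds). The largest moves between the fits are those of Ankrd1, from 2.11 to 0.95, and Tead4, from -0.42 to -1.23.

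Other pathway genes were also high in cKO replicate 2. Amot, a further angiomotin, read 41.7 to 50.9 CPM in WT, 43.6 and 42.0 CPM in cKO replicates 1 and 3 and 242.3 CPM in replicate 2. Amotl1 read 126.0 to 160.0 CPM in WT, 140.6 and 159.1 CPM in those cKO libraries and 426.9 CPM in replicate 2. Vgll2, a TEAD cofactor of skeletal muscle, read 2.62 to 4.60 CPM in WT, 2.46 and 5.40 CPM in cKO replicates 1 and 3 and 22.3 CPM in replicate 2. None of the 3 was called in the 6 libraries (log2 fold changes 1.22, 0.82 and 1.46) or without cKO replicate 2 (-0.13, 0.12 and 0.12).

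**Figure D4:**
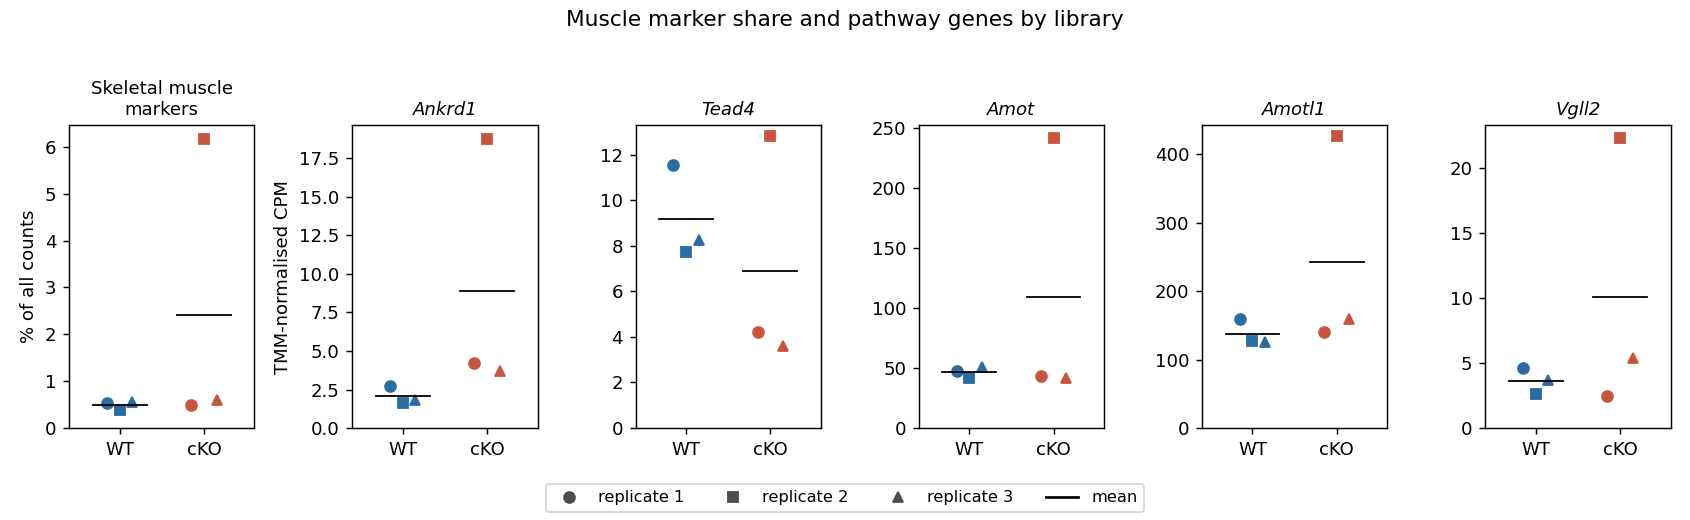
Skeletal muscle markers as a percentage of all counts, and TMM-normalised CPM of Ankrd1, Tead4, Amot, Amotl1 and Vgll2, by library, with group means as black lines. In cKO replicate 2 the marker share is 6.17% and each of the 5 genes has its highest value.

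Among 29 tested Hippo core and upstream genes of 30 listed, 6 were lower and 2 higher, with a median log2 fold change of -0.05. The shares over all genes tested were 10.3% lower and 8.55% higher. This list leaves out Lats1, called lower above, and Lats2. Of the rest of the central kinase module, Stk3 (-0.24, edgeR adjusted p = 0.0896) and Stk4 (0.03), which encode MST2 and MST1, were not called. Nor were the scaffold Sav1 (0.0045, with 25.4% of its exonic bases shared with another gene) and the LATS cofactors Mob1a (0.11) and Mob1b (-0.10). The upstream tumour suppressor Nf2 (-0.05) was not called either. Without cKO replicate 2, Stk3 was called lower (-0.26) and Mob1a higher (0.22). Wwc1 (KIBRA) read 6.17, 5.79 and 6.05 CPM in the WT libraries and 6.84, 3.52 and 7.77 in the cKO libraries, with cKO libraries on both sides of WT (log2 fold change 0.01, 95% interval -0.65 to 0.68). Without cKO replicate 2, the lowest library, Wwc1 had 0.28 (95% interval -0.02 to 0.58) and was not called (edgeR adjusted p = 0.133). Its relative Wwc2 read 99.7, 89.7 and 97.0 CPM in the WT libraries and 59.2, 47.5 and 57.5 in the cKO libraries. Every cKO library was lower, a 1.74-fold fall (log2 fold change -0.80, edgeR adjusted p = 0.00406). Ptpn14, a phosphatase that restrains YAP and is itself a YAP target, stood at 102.3 ± 7.87 CPM in WT and 58.5 ± 8.01 in cKO (SD, n = 3), a 1.75-fold fall (edgeR adjusted p = 0.00608). Strn4, of the STRIPAK phosphatase complex that keeps MST inactive, fell from 134.0 ± 5.42 to 95.1 ± 3.04 CPM (SD, n = 3 each, log2 fold change -0.49). These 3 calls survived each of the 6 omissions of a library.

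The other calls of that list were lost in some of the omissions, while their log2 fold changes kept their direction. Without a WT library Taok1 had -0.46 to -0.40, Fat4 0.57 to 0.62 and Frmd6 0.60 to 0.62. Taok1 (-0.41), a kinase that activates MST, and Ajuba (-0.46), a LIM protein that inhibits LATS, were lower. Leaving out cKO replicate 3 or any WT library ended both calls. Slmap (-0.35), a further STRIPAK member, was lower, a call kept only without cKO replicate 2 among those 6 fits. The FERM protein gene Frmd6 (0.62) and the protocadherin gene Fat4 (0.60) were higher. Frmd6 read 77.2 to 78.0 CPM in the WT libraries and 127.6, 95.7 and 134.0 in the cKO libraries, and was called without cKO replicate 2 and in no other of the 6 fits. The call of Fat4 was lost without any 1 WT library. Map4k4 (-0.17), Mob1a and Strn3 (-0.04), 3 of the 4 genes of the list with the highest level per length, were not called. Without cKO replicate 2, Strn3 was called lower (-0.38), and in all 8 genes of the list were lower and 5 higher. In that fit 17.6% of all genes were called lower and 17.8% higher.

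Of 13 cofactors that bind TEAD or YAP, 12 were tested, and 6 were higher and 0 lower (median log2 fold change 0.70). Over all genes tested, 8.55% were called higher and 10.3% lower. Among the genes of this list with the highest level per length, Jun was called and Vgll3 and Vgll4 were not. Vgll3, which competes for TEAD, had -0.36 (edgeR adjusted p = 0.208) and its relative Vgll4 0.09. Vgll3 read 196.5, 199.6 and 203.5 CPM in the WT libraries and 178.7, 112.4 and 177.6 in the cKO libraries, with all cKO libraries below WT. The 6 higher genes were Runx1 (0.81), Runx2 (1.40), Pax3 (2.40), Smad3 (0.75), Jun (0.65) and Trp73 (1.80), transcription factors with many roles outside this pathway. Pax3 and Trp73 stayed below 1 CPM in each library. Their counts were 3 to 6 and 5 to 9 in WT and 16 to 31 and 20 to 24 in cKO libraries. They passed the low-count filter only through the cKO libraries. A lower call was thus not open to them, and their calls add nothing to the split between higher and lower. The count of 6 and the median of 0.70 include them. Setting them aside, the higher calls were those of Runx1, Runx2, Smad3 and Jun. Without cKO replicate 2 the median of the 12 tested genes was 0.39. Runx1, Runx2 and Pax3 kept their calls whichever library was omitted. Smad3 lost its call without any 1 WT library, Jun without WT replicate 1 or 2, and Trp73 without WT replicate 2 or 3.

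The 22-gene target signature, of which Amotl2, Lats2 and Ankrd1 are members, went both ways. Of 22 tested, 7 were higher, 2 lower and 13 not called, with a median log2 fold change of 0.15. Without the 3 members it was 7, 2 and 10 of 19 and 0.20. Among all genes tested, 8.55% were called higher and 10.3% lower. Ccn1 (CYR61), a matricellular protein and classical YAP target, read 49.2, 43.7 and 45.2 CPM in the WT libraries and 64.0, 75.7 and 77.6 in the cKO libraries. All cKO libraries were higher, a 1.57-fold rise (log2 fold change 0.65, edgeR adjusted p = 0.00741). Ccn2 (CTGF), its close relative, read 36.0, 30.5 and 34.0 CPM in the WT libraries and 32.1, 28.4 and 48.1 in the cKO libraries, and was not called (0.11, 95% interval -0.36 to 0.59); 23.2% of its exonic bases are shared with another gene. Myof, a membrane repair protein, rose to 56.8 ± 3.22 CPM in cKO from 38.1 ± 1.71 in WT (SD, n = 3; edgeR adjusted p = 0.00565). The calls of Ccn1 and Myof survived each of the 6 omissions, as did those of the 2 lower genes, Ptpn14 (-0.81) and the guanine nucleotide exchange factor gene Arhgef17 (-0.60).

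The remaining higher targets were Tgfb2 (0.99), a growth factor, Axl (0.70), a receptor kinase, Igfbp3 (0.61), an IGF-binding protein, the matrix gene Ccdc80 (0.57) and Nt5e (0.55), the ectonucleotidase CD73. Axl read 265.5, 284.7 and 287.7 CPM in the WT libraries and 480.3, 394.4 and 483.1 in the cKO libraries, and Igfbp3 198.9, 205.3 and 191.6 CPM against 275.7, 265.7 and 366.8 CPM. In both genes every cKO library was above every WT library. Calls of Axl, Igfbp3 and Ccdc80 were lost without any 1 WT library, that of Tgfb2 without WT replicate 1 or 2, and that of Nt5e without cKO replicate 3 or a single WT library. Over the list, 2 or 3 higher calls were left without 1 WT library, and 11 were made without cKO replicate 2. Over all genes the higher calls moved the same way, from 1605 to between 449 and 483 without a WT library and to 3425 without cKO replicate 2. Fibroblast markers, of which 2 of 6 rose, took 1.78 to 1.87% of counts in WT and 2.14, 1.47 and 2.19% in cKO replicates 1, 2 and 3. Macrophage markers, of which 4 of 5 rose, took 0.0381 to 0.0431% in WT and 0.0570 to 0.0842% in cKO, with no overlap. Endothelial markers, of which 1 of 6 rose, took 0.0457 to 0.0489% and 0.0570 to 0.0592%, also with no overlap. Erythroid markers, of which 3 of 5 rose, took 0.268 to 0.393% in WT and 0.715 to 2.28% in cKO, again with no overlap. The part of these cell types in the rises was not tested.

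**Figure D5:**
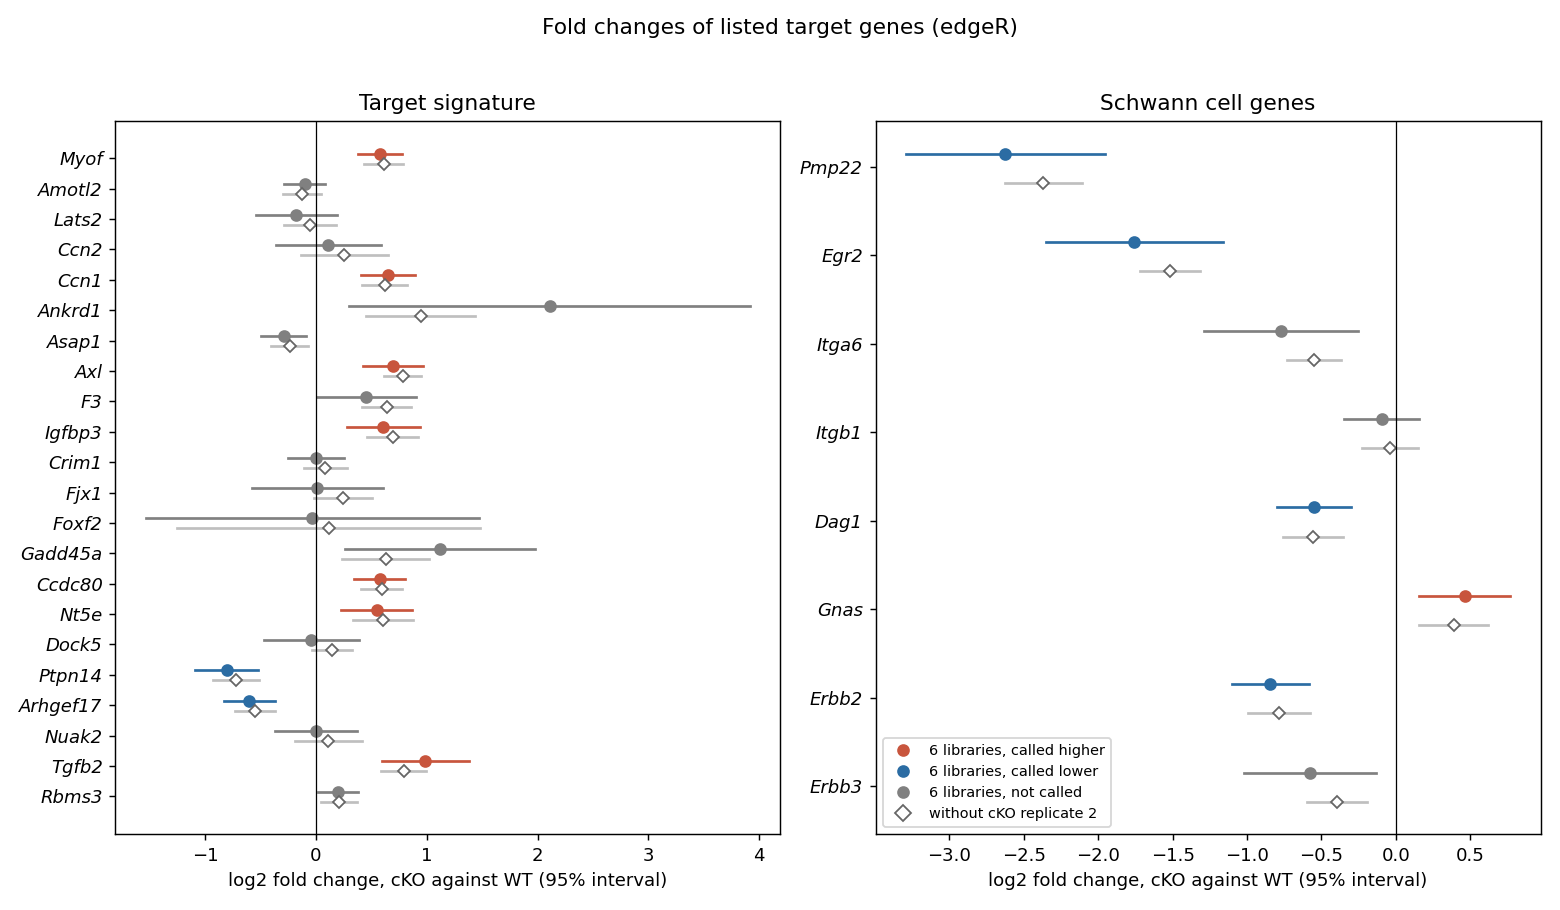
Log2 fold change in cKO against WT with 95% intervals for the 22 signature genes (left) and 8 Schwann cell genes (right), from all 6 libraries (filled circles) and without cKO replicate 2 (open diamonds). On the left 7 genes are called higher and 2 lower, and on the right 4 are called lower and 1 higher.

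Of 8 genes reported to depend on YAP, TAZ or TEAD1 in Schwann cells, 4 were lower and 1 higher (median log2 fold change -0.67), against 10.3% and 8.55% of all genes tested. Pmp22, a compact myelin protein whose enhancers bind TEAD1, read 18619, 21041 and 21057 CPM in the WT libraries and 4162, 1997 and 3682 in the cKO libraries. Egr2 (Krox20), a master regulator of myelin genes, read 136.9, 137.6 and 143.3 CPM in the WT libraries and 53.4, 26.3 and 43.8 in the cKO libraries. Both genes were lowest in cKO replicate 2 and far below WT in all cKO libraries (log2 fold changes -2.63 and -1.76). Erbb2, a neuregulin co-receptor, fell 1.8-fold (edgeR adjusted p = 0.00365), and the laminin receptor gene Dag1 1.46-fold (adjusted p = 0.0144). Itga6, a laminin-binding integrin, had -0.77 (adjusted p = 0.0509) in 6 libraries and -0.55 (adjusted p = 0.000219) without cKO replicate 2. Its partner Itgb1 had -0.10 (95% interval -0.35 to 0.16). Gnas, which encodes a G protein subunit and shares 22% of its exonic bases with other genes, was higher (0.46, adjusted p = 0.0481). Leaving out cKO replicate 3 or any WT library ended the calls of Dag1 and Gnas and left those of Pmp22, Egr2 and Erbb2 in place. This list and the Schwann lineage markers both had a negative median (-0.67 and -1.08), and their relation was not tested. Erbb3 (-0.57, not called) belongs to both lists.

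Across the 6 libraries, genes with log2 CPM profiles among those most like that of Tead1, of 11471 compared, were Asxl2 (r = 0.998) and Chd4 (0.997), both called lower. For Yap1 they were Pigg (0.998), Tfeb (0.990) and Suox (0.988), for Wwtr1 Bex3 (0.995), Lrig3 (0.992) and Dzip1 (0.990), and for Ankrd1 Parvb (0.999), Urgcp (0.997) and Lrrfip1 (0.997), none of them called. With 6 points and so many genes, such values describe these libraries only, and the libraries share their depth, genotype and tissue make-up.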

How the data were processed

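RNA of sciatic nerve was sequenced in 3 WT and 3 cKO libraries, grouped by sample title, per the labels. The authors deposited counts of fragments per gene with no normalization, made with featureCounts 1.6.1 on exons of Ensembl GRCm38 release 95 (both ends mapped, mapping quality at least 20, strand not used), per the file headers. The same deposited table gives exonic length in bases (other annotation, not a measurement), per the file headers. Subread 2.0 and DESeq2 1.3 are listed too, per the submitters' processing notes, with no role given. Without strand, antisense reads cannot be told from sense reads, and reads in exons of 2 genes go to neither.

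Symbols came from GENCODE M21 (same build), which named 54809 identifiers and left 29 unnamed. Testing used edgeR 4.0.16 (R 4.3.3) on the whole table: filterByExpr (minimum count of 10), TMM, robust quasi-likelihood F test, 2-sided, Benjamini-Hochberg over 18775 genes, called below 0.05. Standard errors and 95% intervals come from that statistic. Ratios between members were tested by exact permutation. Alternatives were DESeq2 1.42.0, other scaling factors, no filter, each library left out, a replicate block and a muscle covariate. The length of Lats2 without shared exons was added after seeing the data.

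The members and lists were chosen with earlier results of these data known. The target signature was written from knowledge of a published pan-cancer signature. Named genes were the 10 members, Actl6a, every called gene of the 4 pathway lists and the 4 of each with the highest level per length. Of the genes this rule names, 2 are not reported here. Stk3, Stk4, Sav1, Mob1b, Nf2, Wwc1, Amot, Amotl1, Vgll2, Ccn2, Gm49361, Erbb3, Fabp4, Adipoq, Plin1 and Cfd were named after their values were seen. Human symbols on the lists were replaced by mouse ones (Trp73, Ccn1, Ccn2). Promoter windows are RefSeq entries on GRCm38.p6.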

Additional observations from a re-analysis of the deposited data

How the results depend on the processing

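The lower calls of Tead1 and Tead3 held in all 12 alternatives (DESeq2, 2 other scaling factors, no low-count filter, a replicate block, a muscle covariate and the 6 libraries left out in turn), with log2 fold changes of -0.99 to -0.80 and -0.63 to -0.55. The call of Lats1 was lost in 6 of 12, by upper-quartile scaling (adjusted p = 0.0715), by the replicate block (0.0811) and by 4 of the 6 omissions. The members called higher were 1 with DESeq2, 1 with the muscle covariate and 0 to 1 over the omissions, Ankrd1 in each case. Over all genes, 1605 were called higher and 1929 lower. The muscle covariate gave 3247 and 3296, and omissions gave 449 to 3425 and 790 to 3398, the highest counts being those without cKO replicate 2. The cause was not tested. The target signature had 2 to 11 higher calls over the omissions. The Yap1 to Wwtr1 difference turned negative without WT replicate 2 or cKO replicate 2 and ranged from -0.22 to 0.12 over the omissions. The log2 fold changes of Yap1 (-0.15 to 0.06) and Wwtr1 (-0.10 to 0.11) each changed sign in 3 of 12 alternatives and were called in none. Tead4 was called lower with the muscle covariate (-1.30, adjusted p = 0.000107), as it was without cKO replicate 2. The muscle share stood apart only in that library, so these fits are not independent of each other. Upper-quartile scaling also ended the call of Slmap (adjusted p = 0.0816), and RLE size factors that of Gnas (0.0503). No scaling moved the median of all genes by more than 0.1.

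Replicate numbers showed no sign of pairing: deviations of same-numbered WT and cKO libraries correlated at -0.22, -0.23 and -0.08, and no library correlated best with its own number. These are deviations from means of 3 libraries, with cKO replicate 2 far from the others, so they cannot exclude pairing. With the replicate block, 744 genes were called higher and 1108 lower. Besides Lats1 it ended the calls of Taok1, Ajuba, Slmap, Igfbp3, Nt5e, Dag1 and Gnas, and the lower calls among Hippo genes went from 6 to 3. With the block the difference in the Tead1 ratio was -0.52 (exact p = 0.25, the smallest that 3 pairs allow).

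Ankrd1 and Tead4 had the lowest levels of the 10 genes. Their standard errors went from 0.73 to 0.23 and from 0.52 to 0.19 without cKO replicate 2. A limit set by depth was not tested.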
